A study of Homo sapiens and Mus musculus with 21 samples.

Results

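Tight junctions and desmosomes are the contacts that seal and hold together neighbouring cells of an epithelium or of the mesothelium that lines the chest. The set described here holds 9 of their genes, of 60674 genes in each of 2 human count tables: CLDN1, OCLN and F11R, TJP1 and CGN, and DSP, JUP, PKP2 and PKP3. The genes were chosen by name as a family, with earlier results of the same comparisons in view, among them a rise of CLDN1 in H2810 cells with the BAP1 hairpin. The adjusted p-values and counts of called genes below therefore describe each fit and are no independent support, and no p is given for CLDN1 in that comparison or in the comparison of responses built on it.

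RNA sequencing counts came from human mesothelioma lines labelled as pleura. In the drug experiment, H2731 cells (labelled Bap1 mutated) and H2810 cells (labelled Bap1 wildtype) received GSK126, an inhibitor of the histone methyltransferase EZH2, or its vehicle DMSO. In the knockdown experiment, MSTO-211H and H2810 cells carried a BAP1 shRNA (shBAP1) or a random shRNA. BAP1 is a tumour suppressor that removes ubiquitin from histone H2A. Each of the 8 groups had 2 libraries, 16 in all. Dose, treatment time and hairpin sequences are not given in the sources used here, and each line is a single line, so that a difference between lines and a difference in BAP1 status cannot be told apart.

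In a tight junction, claudins such as claudin-1 (CLDN1) form the paracellular seal, with occludin (OCLN) and the junctional adhesion molecule A (F11R) beside them in the membrane. ZO-1 (TJP1) is the scaffold that ties these proteins to actin, and cingulin (CGN) is a cytoplasmic partner of it. In a desmosome, the cadherins desmoglein and desmocollin are bound inside the cell by plakoglobin (JUP) and plakophilins (PKP2, PKP3), and desmoplakin (DSP) links these to keratin filaments. The repressors of the SNAI and ZEB families are known to bind CACCTG boxes in the promoters of epithelial junction genes, and promoters rich in CpG are the usual sites of EZH2-containing complexes.

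The promoters of CLDN1, JUP and DSP are shown because these genes had the largest response to the hairpin, the largest response to GSK126 and a rise with GSK126 in both lines. The sequences are RefSeq windows of GRCh38.p14, of 250 bases before to 50 after a start, read on the gene's strand. Capitals mark CACCTG or its reverse complement CAGGTG. JUP has 2 starts in the table, and the upstream one is given first.
CLDN1, chr3:190322397-190322696, minus strand: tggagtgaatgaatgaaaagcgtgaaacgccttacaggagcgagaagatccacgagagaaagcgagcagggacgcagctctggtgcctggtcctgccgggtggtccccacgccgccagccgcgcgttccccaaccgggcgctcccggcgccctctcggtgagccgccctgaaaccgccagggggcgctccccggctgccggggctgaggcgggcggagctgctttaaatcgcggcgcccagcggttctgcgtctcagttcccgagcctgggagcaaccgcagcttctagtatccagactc
JUP upstream start, chr17:41786662-41786961, minus strand: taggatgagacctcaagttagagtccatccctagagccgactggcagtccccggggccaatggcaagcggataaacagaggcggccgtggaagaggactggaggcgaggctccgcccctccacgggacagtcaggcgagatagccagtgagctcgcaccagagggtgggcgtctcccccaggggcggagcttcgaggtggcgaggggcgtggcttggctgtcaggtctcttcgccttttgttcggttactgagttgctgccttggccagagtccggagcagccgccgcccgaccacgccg
JUP downstream start, chr17:41785927-41786226, minus strand: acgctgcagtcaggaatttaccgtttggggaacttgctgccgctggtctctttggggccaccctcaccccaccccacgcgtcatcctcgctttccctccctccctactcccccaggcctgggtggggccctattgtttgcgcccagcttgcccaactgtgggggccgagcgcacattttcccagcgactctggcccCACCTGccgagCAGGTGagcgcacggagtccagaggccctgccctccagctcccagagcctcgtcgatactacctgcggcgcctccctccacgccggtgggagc
DSP, chr6:7541421-7541720, plus strand: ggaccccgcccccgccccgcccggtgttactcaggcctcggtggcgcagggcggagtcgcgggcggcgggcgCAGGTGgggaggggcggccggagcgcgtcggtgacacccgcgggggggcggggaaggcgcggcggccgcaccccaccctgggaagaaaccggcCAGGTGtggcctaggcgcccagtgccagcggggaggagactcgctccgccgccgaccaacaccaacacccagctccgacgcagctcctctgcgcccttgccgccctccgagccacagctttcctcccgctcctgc

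The box was found 2 times at DSP, with first bases 178 and 85 before the start, and 2 times at the downstream JUP start, at positions -54 and -43. These letters were not in the CLDN1 window or in the upstream JUP window. Of the 9 genes, 6 had windows in the table (CLDN1, OCLN, TJP1, CGN, DSP and JUP). Elsewhere the box occurred 1 and 2 times in the windows of OCLN, 1 time in 1 of 4 windows of TJP1, and not in CGN. It is common: 7231 of 35116 promoter windows of the same length (20.6%) hold at least 1. The windows of CLDN1, CGN and DSP held 31, 37 and 37 CpG, against a median of 14 over all windows, and those of JUP held 23 and 19. The windows of OCLN held 26 and 28, and the 4 of TJP1 held 34, 36, 21 and 3, the last being far below the median. A match is a description of the letters, and binding was not measured.

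Libraries held 17927837 to 23217215 counts, and all 9 genes passed the filter on low counts in both tables. CGN and PKP3 in H2810 and CLDN1 in H2731 were low. With the 2 shBAP1 and random shRNA groups of H2810 alone, CGN did not pass that filter, so in the knockdown table it was tested only through MSTO-211H, where it was higher, and its values in H2810 and between these lines are given as a description. BAP1 had 13.4 and 20.3 CPM (counts scaled to the library's total) in H2810 shBAP1 libraries, against 115 and 117 CPM with the random shRNA, and 15.4 and 17.7 CPM in MSTO-211H shBAP1 libraries, against 100 and 103 CPM, so the hairpin lowered it 6.91-fold in H2810 and 6.12-fold in MSTO-211H. EZH2, the drug target, had 38.6 and 39.3 CPM with GSK126 in H2810, against 33.5 and 32.8 CPM with DMSO (edgeR adjusted p = 0.00315). In H2731 it had 78.3 and 76.6 CPM, against 81.1 and 78.7 CPM (edgeR adjusted p = 0.501), and the difference of the responses was called lower (-0.28 ± 0.07, edgeR adjusted p = 0.00989). Of 12 mesothelial markers, 7 or 8 reached 1 CPM in both libraries of every group, led by the keratins KRT8 and KRT18. UPK1B, LRRN4 and KRT5 averaged at most 0.186 CPM in any group. UPK3B was near 0 in H2810, KRT19 in H2810 and MSTO-211H, and PDPN in H2731 and MSTO-211H. The 6 carcinoma-type epithelial markers, EPCAM and CDH1 among them, summed to at most 9.02 CPM in any library. Marker sums moved with the groups. Mesothelial genes summed to 4327 to 4369 CPM with GSK126 in H2731, against 5156 to 5607 CPM with DMSO, and to 2394 to 2412 CPM in H2810, against 3253 to 3436 CPM. With shBAP1 they summed to 10650 to 11187 CPM in MSTO-211H, against 8856 to 9560 CPM, and to 1652 to 1655 CPM in H2810, against 1625 to 1690 CPM. Fibroblast genes were highest in H2810. With GSK126 they summed to 295 to 302 CPM in H2731, against 377 to 399 CPM, and to 8607 to 8888 CPM in H2810, against 9459 to 10600 CPM. With shBAP1 they summed to 1150 to 1249 CPM in MSTO-211H, against 1013 to 1053 CPM, and to 7543 to 8454 CPM in H2810, against 10175 to 10775 CPM. The part of these shifts in the results was not tested. Leukocyte genes summed to at most 4.56 CPM, and in MSTO-211H to 3.03 to 3.13 CPM with shBAP1, against 0.627 to 0.67 CPM. Endothelial genes summed to 20.4 to 21 CPM with GSK126 in H2810, against 12.3 CPM with DMSO, and to less in all other groups. In bulk RNA, fewer cells that express a gene and less RNA per cell cannot be told apart. The labels do not say that replicates are separate cultures, so p-values measure only the spread between these libraries. In H2810 of the knockdown experiment the 2 libraries of a group differed more (chi-square per degree of freedom 16.3 with shBAP1 and 16.5 with the random shRNA) than in the other groups (1.99 to 6.16).

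Levels are compared between genes per kb of exon, as mean CPM per kb. In H2731 with DMSO, JUP was highest at 36.3, then PKP3 at 10.4, PKP2 at 7.07, TJP1 at 6.18, F11R at 5.63 and DSP at 1.78 CPM per kb, with CGN at 0.437, OCLN at 0.283 and CLDN1 at 0.0699. In MSTO-211H with the random shRNA the order was another one. CLDN1 led at 33.1 CPM per kb, before PKP2 at 18.7, TJP1 at 17.8 and PKP3 at 9.39, and DSP was the lowest at 0.21. In H2810 with DMSO, JUP at 14.8, PKP2 at 12.8, TJP1 at 10.2 and DSP at 8.67 CPM per kb lay close together, while CLDN1 was at 1.24. In H2810 with the random shRNA, TJP1 led, before JUP at 8.55 and DSP at 7.85 CPM per kb and then PKP2, so the order in this line was not the same under its 2 controls. OCLN and CGN were below 1 CPM per kb in every group.

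**Figure D1:**
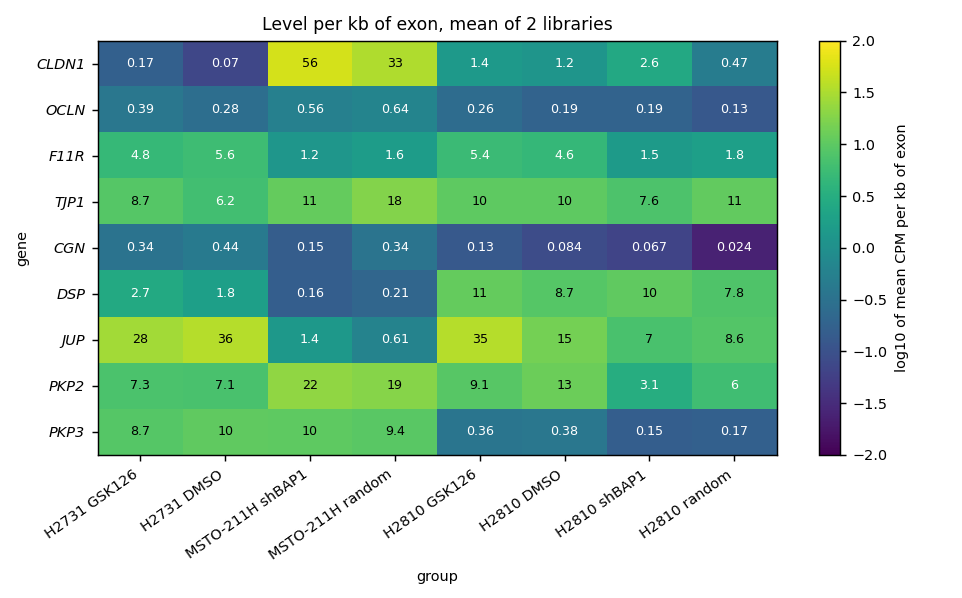
Mean level of each gene (rows) in each group (columns) as CPM per kb of exon, the mean of 2 libraries, with colour on a log10 scale. CLDN1 reaches 33.1 in MSTO-211H with the random shRNA and 0.0699 in H2731 with DMSO, and OCLN and CGN stay below 1 in every column; the drug and knockdown tables were scaled separately.

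The H2731 and H2810 lines differed in all 9 genes under DMSO. In the fit over 15999 genes, 5 of the 9 were called higher in H2731, where 41.5% of all genes were, and 4 were called lower, where 40.7% were. CLDN1 had 0.304 and 0.203 CPM in H2731, from 11 counts in all, against 5.31 and 3.71 CPM in H2810, and was 16.9-fold lower. Of these 2 groups, only H2810, where it was higher, carries it past the filter. Its difference is thus a description, and CLDN1 is 1 of the 4 called lower. PKP3 had 40.7 and 38.1 CPM in H2731, against 1.48 and 1.42 CPM in H2810, and was 27.1-fold higher. The lines did not overlap for either gene, nor for any of the 9 and 90.1% of all genes tested. DSP had 24.0 and 24.4 CPM in H2731, against 111 and 125 CPM in H2810, and was 4.89-fold lower, while its partner JUP had 183 and 176 CPM, against 72.4 and 73.7 CPM, and was 2.45-fold higher. CGN was 5.13-fold higher in H2731, F11R 1.23-fold higher and OCLN 1.49-fold higher. The OCLN difference had an edgeR adjusted p of 0.0204, but it was 0.0795 with DESeq2 and 0.217 and 0.282 without the first DMSO library of H2810 or of H2731. PKP2 and TJP1 were 1.82-fold and 1.66-fold lower in H2731.

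MSTO-211H and H2810 with the random shRNA lay further apart. Over 15872 genes tested, 6 of the 9 were called higher in MSTO-211H, against 39% of all genes, and 2 lower, against 40.7%. The 6 include CGN, whose value here is a description. CLDN1 had 119 and 121 CPM in MSTO-211H, against 1.42 and 1.99 CPM in H2810, and was 70.8-fold higher. DSP had 2.82 and 2.89 CPM in MSTO-211H, against 126 and 87.9 CPM in H2810, and was 37.4-fold lower. JUP had 3.54 and 2.51 CPM, against 42.7 and 41.8 CPM, and was 13.9-fold lower. The desmosome linker and its plakoglobin adaptor were thus both low in the line in which the plakophilins were high: PKP3 was 55.3-fold and PKP2 3.12-fold higher. CGN, OCLN and TJP1 were 13.8-fold, 5.06-fold and 1.63-fold higher in MSTO-211H, and F11R did not pass (log2 fold change -0.15 ± 0.12 SE, edgeR adjusted p = 0.285). In the 2 line comparisons the median log2 fold change of the 9 genes was 0.30 in H2731 and 1.64 in MSTO-211H, against 0.01 and -0.03 over all genes tested.

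H2810 stood in both experiments. With the random shRNA it had lower mean levels than with DMSO for 8 of the 9 genes, TJP1 being the exception: F11R averaged 9.02 against 23.2 CPM, PKP2 61.8 against 132 CPM and JUP 42.2 against 73.1 CPM. The tables were scaled separately and this difference was not tested.

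GSK126 in H2810 raised plakoglobin most. JUP had 174 and 176 CPM with GSK126, against 72.4 and 73.7 CPM with DMSO. The groups did not overlap, and JUP was 2.39-fold higher (log2 fold change 1.26 ± 0.04 SE, edgeR adjusted p = 2.32e-14). DSP had 153 and 156 CPM with GSK126, against 111 and 125 CPM with DMSO, and was 1.31-fold higher (0.39 ± 0.05, edgeR adjusted p = 1.80e-05). PKP2 went the other way, with 92.9 and 94.1 CPM, against 127 and 137 CPM, and was 1.41-fold lower (-0.50 ± 0.04, edgeR adjusted p = 3.93e-08). The GSK126 and DMSO libraries did not overlap for these 3 genes, nor for 7 of the 9 in all and 62.7% of all genes tested. F11R had 27.1 and 27.6 CPM with GSK126, against 24.5 and 21.8 CPM with DMSO, 1.19-fold higher (edgeR adjusted p = 0.0164). That call was lost with DESeq2, at an adjusted p of 0.123, and without either GSK126 library or the second DMSO library, at 0.0564 to 0.216. In all, 3 of the 9 genes were called higher and 1 lower, where 16.3% and 12.9% of all genes were, and their median log2 fold change was 0.25, against 0.00 over all genes.

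The other 5 genes did not pass in H2810. CLDN1 had 5.04 and 5.38 CPM with GSK126, against 5.31 and 3.71 CPM with DMSO, and the groups overlapped (0.22 ± 0.17, edgeR adjusted p = 0.362). TJP1 had 115 and 118 CPM, against 111 and 120 CPM (0.01 ± 0.05, edgeR adjusted p = 0.939). OCLN had 2.86 and 3.05 CPM, against 1.66 and 2.59 CPM, and CGN had 0.883 and 0.863 CPM, against 0.571 and 0.537 CPM. Both of these had higher values with GSK126 in each library but few counts, and their log2 fold changes were 0.45 ± 0.23 and 0.65 ± 0.38. The OCLN change passed without the second DMSO library (edgeR adjusted p = 0.0337). PKP3 had 1.40 and 1.32 CPM, against 1.48 and 1.42 CPM.

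**Figure D2:**
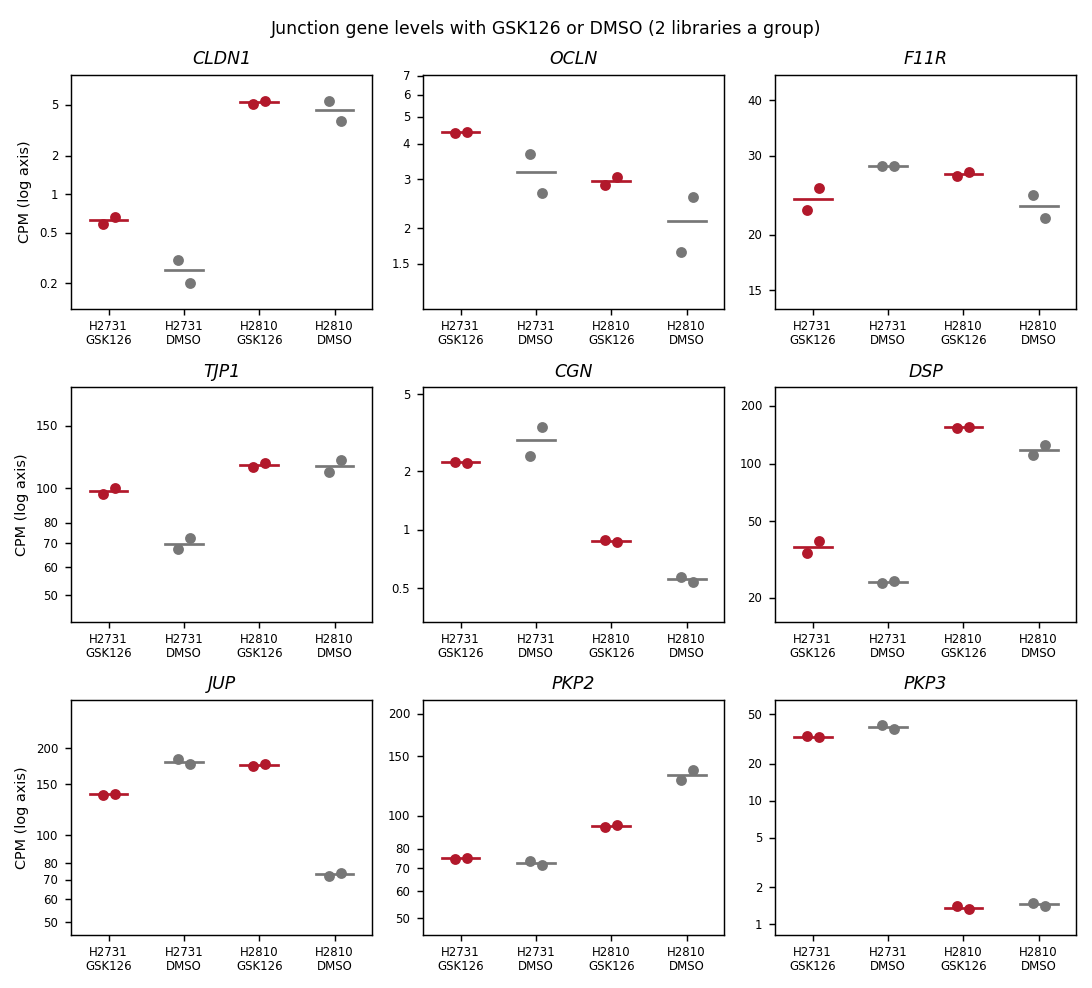
CPM of each gene on a log axis in the 8 libraries of the drug experiment, with each point 1 library and each bar the mean of a group. JUP lies at 174 and 176 CPM with GSK126 in H2810, against 72.4 and 73.7 CPM with DMSO, and at 138 and 139 CPM in H2731, against 183 and 176 CPM.

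In H2731, GSK126 was followed by rises of the linker DSP and the scaffold TJP1 and by a fall of JUP. DSP had 34.0 and 39.3 CPM with GSK126, against 24.0 and 24.4 CPM with DMSO, and was 1.52-fold higher (0.60 ± 0.08, edgeR adjusted p = 9.94e-06). TJP1 had 96.2 and 100.3 CPM, against 67.5 and 72.3 CPM, and was 1.41-fold higher (0.49 ± 0.05, edgeR adjusted p = 3.83e-07). JUP had 138 and 139 CPM, against 183 and 176 CPM, and was 1.30-fold lower (-0.37 ± 0.04, edgeR adjusted p = 4.11e-07). The GSK126 and DMSO libraries did not overlap for these 3, nor for any of the 9, PKP2 at 1.03-fold included, nor for 59.5% of all genes tested. PKP3 had 33.1 and 33.0 CPM, against 40.7 and 38.1 CPM (-0.26 ± 0.06, edgeR adjusted p = 0.00274), and F11R had 22.7 and 25.4 CPM, against 28.4 and 28.6 CPM (-0.24 ± 0.07, edgeR adjusted p = 0.0158). Both falls were lost with DESeq2, at adjusted p of 0.123 for PKP3 and 0.125 for F11R. Without the first DMSO library of H2731 the PKP3 adjusted p was 0.0502, and without 1 of 3 H2731 libraries in turn (both DMSO libraries and the first GSK126 library) that of F11R was 0.0575 to 0.188.

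CLDN1 in H2731 had 0.585 and 0.658 CPM with GSK126, from 26 counts in all, against 0.304 and 0.203 CPM with DMSO, from 11 counts. The groups did not overlap, at a log2 fold change of 1.25 ± 0.50, but the edgeR adjusted p was 0.0738, and it was 0.0481 or 0.0478 when 1 of the H2810 DMSO libraries was left out of the shared fit. OCLN had 4.39 and 4.42 CPM, against 3.70 and 2.68 CPM (0.45 ± 0.18, edgeR adjusted p = 0.0832). This passed without the filter on low counts (adjusted p = 0.0457) and without either DMSO library of H2810 or the first of H2731 (0.0464 to 0.0485). PKP2, with 74.8 and 75.3 CPM against 73.9 and 71.6 CPM, and CGN, with 2.24 and 2.21 CPM against 2.39 and 3.39 CPM, did not pass. Of the 9 genes, 2 were called higher and 3 lower, where 13.8% and 10.9% of all genes were, with a median log2 fold change of 0.04, against 0.00.

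The response to GSK126 differed between H2731 and H2810 for 4 of the 9 genes: 2 were called higher in this difference, where 8.08% of all genes were, and 2 lower, where 6.66% were. JUP differed most, its response being lower in H2731 by a log2 difference of -1.63 ± 0.06 (edgeR adjusted p = 2.20e-13), since it fell there and rose in H2810. F11R, called in opposite directions in the 2 lines, differed by -0.49 ± 0.10 (edgeR adjusted p = 0.00227). TJP1, which rose in H2731, differed by 0.49 ± 0.07 (edgeR adjusted p = 3.98e-05), and PKP2, which fell in H2810, by 0.54 ± 0.06 (edgeR adjusted p = 4.65e-06). The DSP response did not pass as different (0.21 ± 0.10, edgeR adjusted p = 0.153), and passed without the first DMSO library of H2810 (0.0157) or the first GSK126 library of H2731 (0.0377).

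**Figure D3:**
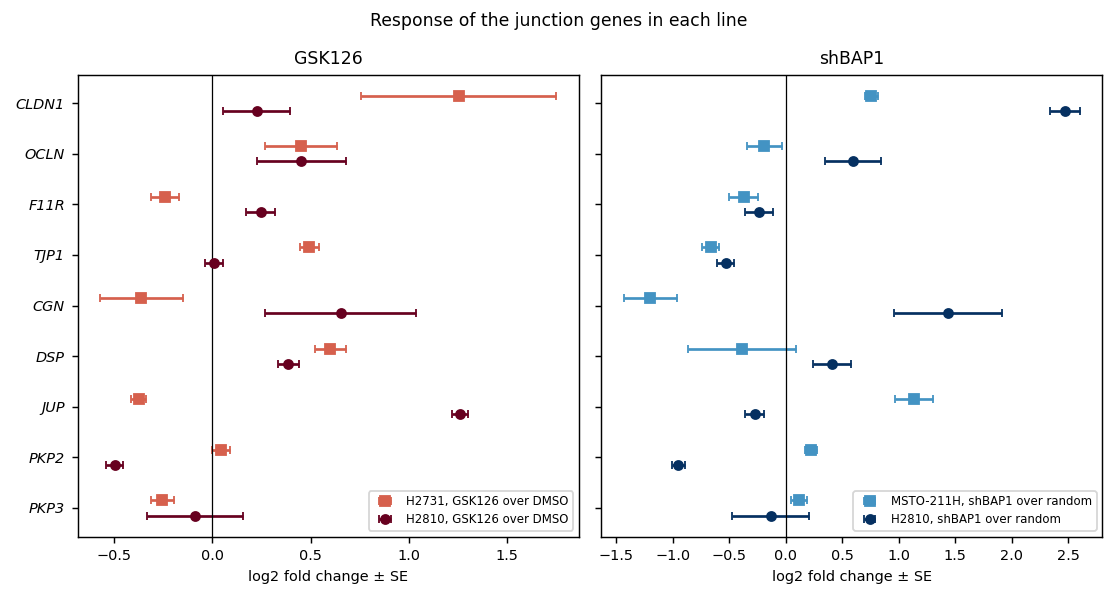
Log2 fold change with its SE for each gene, GSK126 over DMSO on the left and shBAP1 over the random shRNA on the right, with squares for H2731 or MSTO-211H and circles for H2810. JUP lies on opposite sides of 0 in the 2 lines of each panel, at -0.37 and 1.26 for GSK126 and at 1.14 and -0.28 for shBAP1.

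The BAP1 hairpin in H2810 went with more claudin-1 RNA. CLDN1 had 9.72 and 9.02 CPM with shBAP1, against 1.42 and 1.99 CPM with the random shRNA, and was 5.54-fold higher (log2 fold change 2.47 ± 0.13 SE). Both shBAP1 libraries were high and both control libraries low, as the choice of this gene already implied. The plakophilin PKP2 had 31.1 and 32.8 CPM with shBAP1, against 60.6 and 63.0 CPM, and was 1.93-fold lower (-0.95 ± 0.06, edgeR adjusted p = 4.35e-07). TJP1 had 92.6 and 79.0 CPM, against 130 and 118 CPM, and was 1.44-fold lower (-0.53 ± 0.07, edgeR adjusted p = 1.45e-04). CLDN1 and the scaffold TJP1 thus changed in opposite directions. This holds for CLDN1 and not for claudins in general. CLDN11, the most abundant claudin, was called lower there, as TJP1 was (-0.66 ± 0.05). JUP had 36.6 and 33.2 CPM, against 42.7 and 41.8 CPM, 1.21-fold lower (edgeR adjusted p = 0.0220). That call was lost with DESeq2 (adjusted p = 0.116) and without either random shRNA library or the second shBAP1 library (0.0836 to 0.109).

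CGN in H2810 had 0.440 and 0.443 CPM with shBAP1, against 0.172 and 0.146 CPM, from 19 counts in all against 7 (1.44 ± 0.48). The shared fit called it, and DESeq2 and the fits that left out any 1 of the 4 H2810 libraries did not, at adjusted p of 0.0933 to 0.125. DSP had 169 and 115 CPM with shBAP1, against 126 and 87.9 CPM, so the groups overlapped and the replicates of each group were apart (0.41 ± 0.17, edgeR adjusted p = 0.0699). It passed with RLE factors (adjusted p = 0.0244), without the filter on low counts (2.08e-09) and with the replicate block (0.00119). The log2 fold change was 0.70 without the first random shRNA library and 0.66 without the second shBAP1 library. OCLN, with 2.42 and 1.82 CPM against 1.42 and 1.41 CPM, did not pass (edgeR adjusted p = 0.0713), but did without the filter (0.0317) and without the second shBAP1 library (0.0360). F11R and PKP3 did not pass, at log2 fold changes of -0.24 ± 0.12 and -0.13 ± 0.34. In all, 2 of the 9 were called higher and 3 lower, where 22.5% and 23.3% of all genes were. The 2 higher ones were CLDN1 and CGN, whose rises are a description. Their median log2 fold change was -0.13, against -0.03 over all genes.

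**Figure D4:**
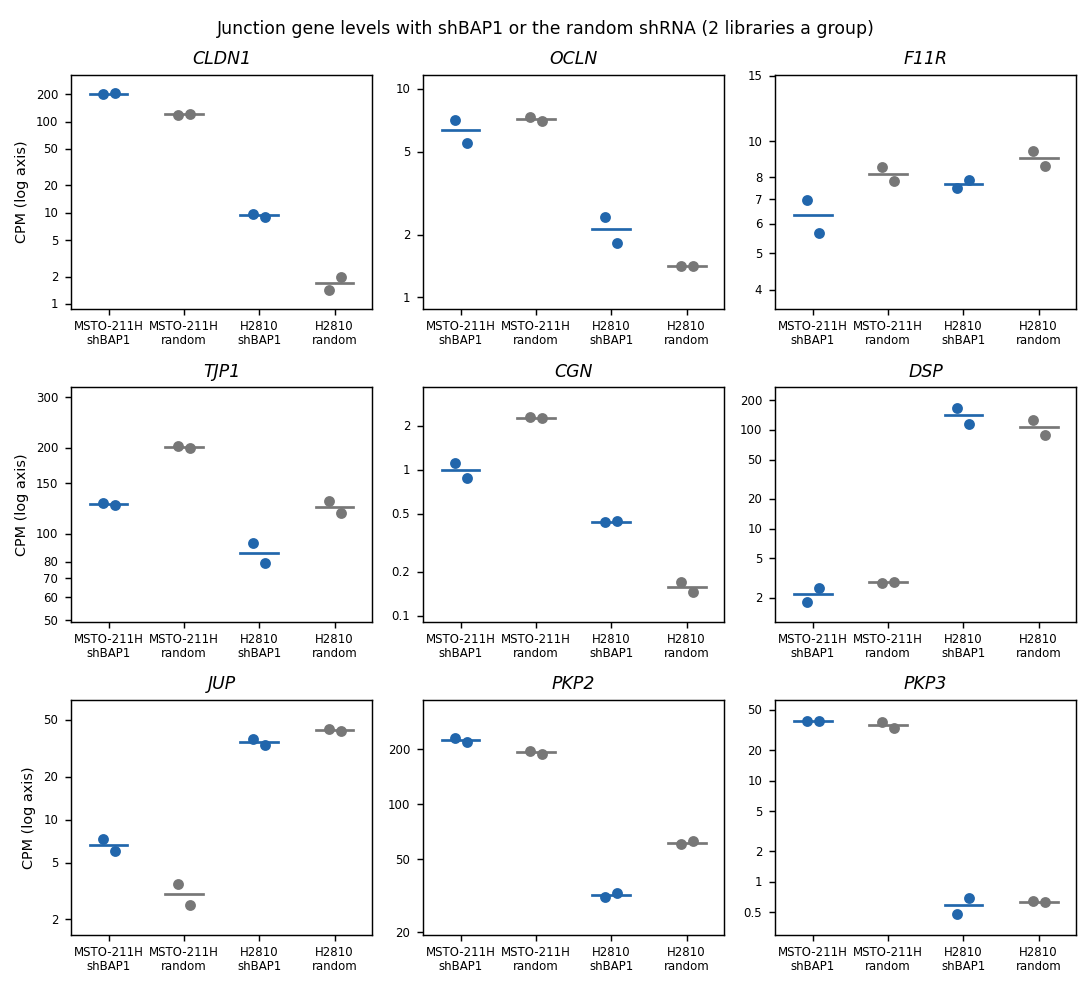
CPM of each gene on a log axis in the 8 libraries of the knockdown experiment, with each point 1 library and each bar the mean of a group. CLDN1 lies at 201 and 204 CPM with shBAP1 in MSTO-211H, against 119 and 121 CPM, and at 9.72 and 9.02 CPM in H2810, against 1.42 and 1.99 CPM.

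In MSTO-211H, which already had most CLDN1, the gene was higher again with the hairpin. CLDN1 had 201 and 204 CPM with shBAP1, against 119 and 121 CPM with the random shRNA, and was 1.69-fold higher (0.76 ± 0.06, edgeR adjusted p = 1.35e-06). JUP had 7.36 and 5.99 CPM, against 3.54 and 2.51 CPM, and was 2.20-fold higher (1.14 ± 0.17, edgeR adjusted p = 2.27e-04). TJP1 had 128 and 126 CPM, against 203 and 200.3 CPM, and was 1.59-fold lower (-0.67 ± 0.07, edgeR adjusted p = 2.17e-05). The groups did not overlap for these 3, nor for 8 of the 9 in all and 75.6% of all genes tested. CGN had 1.11 and 0.881 CPM, against 2.30 and 2.27 CPM, and was 2.30-fold lower (-1.20 ± 0.23, edgeR adjusted p = 0.00144), with an adjusted p of 0.0556 under DESeq2. PKP2 had 231 and 218 CPM, against 196 and 189 CPM, and was 1.17-fold higher (0.22 ± 0.05, edgeR adjusted p = 0.00427). That small rise was lost without the second random shRNA library (adjusted p = 0.0522) or the first shBAP1 library (0.0615).

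F11R in MSTO-211H had 6.97 and 5.68 CPM with shBAP1, against 8.52 and 7.81 CPM (-0.37 ± 0.13, edgeR adjusted p = 0.0357). It was lost with DESeq2 (adjusted p = 0.193) and without 3 of the 4 MSTO-211H libraries in turn (0.0619 to 0.269), the first shBAP1 library being the exception. OCLN, DSP and PKP3 did not pass: DSP had 1.83 and 2.51 CPM, against 2.82 and 2.89 CPM, OCLN 7.12 and 5.51 CPM, against 7.32 and 7.04 CPM, and PKP3 38.9 and 38.4 CPM, against 38.0 and 33.3 CPM. Of the 9 genes, 3 were called higher and 3 lower, where 21.7% and 24.5% of all genes were, with a median log2 fold change of -0.19, against -0.02.

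In the difference of the shBAP1 responses, MSTO-211H minus H2810, 2 of the 9 genes were called higher, where 11.2% of all genes were, and 2 lower, where 16.5% were; the 2 lower ones were CLDN1 and CGN, whose values are a description. The rise of CLDN1 on the log2 scale was smaller in MSTO-211H by -1.71 ± 0.15. JUP, called higher in MSTO-211H and lower in H2810, differed by 1.41 ± 0.19 (edgeR adjusted p = 2.62e-04), and PKP2 by 1.17 ± 0.08 (edgeR adjusted p = 2.17e-06). The CGN values differed by -2.64 ± 0.53, a description on few counts in H2810. The fall of TJP1 did not pass as different (-0.13 ± 0.10, edgeR adjusted p = 0.376), but it passed without the second shBAP1 library of H2810 (adjusted p = 0.0479).

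The other genes of these structures, listed by family and not by how they moved, were counted in the same fits. Over the 4 comparisons within a line, the median log2 fold change of all genes tested ran from -0.03 to 0.00. The counts below stand beside these shares of all genes called: with GSK126, 13.8% higher and 10.9% lower in H2731, and 16.3% and 12.9% in H2810; with shBAP1, 21.7% and 24.5% in MSTO-211H, and 22.5% and 23.3% in H2810. With 5 to 26 genes tested a list, nothing is read from a count against its share. Where 0 genes of a list are given as called in a direction by edgeR, DESeq2 called 0 as well; 1 gene had an unadjusted p under 0.05 among the claudins higher and the membrane and epithelial factor genes lower with GSK126 in H2731, and among the ZEB, SNAI and TWIST genes lower with GSK126 in H2810, and 0 did in the other cases. Of 22 other claudins, 7 passed the filter on low counts in the drug table and 5 in the knockdown table. With GSK126, 0 rose and 1 fell in H2731, and 2 rose and 2 fell in H2810. With shBAP1, 1 rose and 1 fell in MSTO-211H, and 0 rose and 4 fell in H2810. Their median log2 fold change ran from -0.57 with shBAP1 in H2810 to 0.00 with shBAP1 in MSTO-211H. The 0.00 is the entry of CLDN23 alone, with an SE of 0.0000, and is not read as a measured change. With the random shRNA, the fit put CLDN23 119-fold lower in MSTO-211H than in H2810 (-6.89 ± 0.99). This is a description and not read as a measured size, since that H2810 group alone carried CLDN23 into the fit. CLDN23 had 3.17 and 2.38 CPM with GSK126 in H2810, against 1.20 and 1.12 CPM with DMSO, and was 2.39-fold higher (edgeR adjusted p = 6.33e-04). In the knockdown table it entered the fit only through H2810 with the random shRNA, where it was higher. Its fall with shBAP1 in H2810, where its 2 libraries held 3 counts in all, is therefore a description. CLDN23 is 1 of the 4 counted as fallen there. CLDN11, singled out after its values were seen because it was the most abundant claudin, averaged 371 CPM in H2810 with DMSO and 368 CPM in MSTO-211H with the random shRNA, but 0.0905 CPM in H2731 with DMSO. With shBAP1 it averaged 627 CPM in MSTO-211H, against 368 CPM (0.77 ± 0.05, edgeR adjusted p = 6.00e-07), and 193 CPM in H2810, against 305 CPM (-0.66 ± 0.05, edgeR adjusted p = 2.52e-06), so in H2810 it fell while CLDN1 rose.

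Of 12 other tight junction membrane genes, 7 were tested in the drug table and 6 in the knockdown table. With GSK126, 2 rose and 0 fell in H2731, and 3 rose and 0 fell in H2810. With shBAP1, 2 rose and 2 fell in MSTO-211H, and 2 rose and 3 fell in H2810. Their median ran from -0.13 with shBAP1 in H2810 to 0.47 with GSK126 in H2810. CXADR, the coxsackievirus and adenovirus receptor, had 5.56 and 4.77 CPM with GSK126 in H2810, against 1.37 and 1.46 CPM with DMSO, and was 3.62-fold higher (1.86 ± 0.18, edgeR adjusted p = 2.07e-07). It had 2.02 and 1.82 CPM with shBAP1 in H2810, against 0.687 and 0.438 CPM, and was 3.36-fold higher (1.75 ± 0.32, edgeR adjusted p = 9.79e-04). In H2810 it was thus called higher with both the drug and the hairpin. It was also called higher with shBAP1 in MSTO-211H (0.61 ± 0.10, edgeR adjusted p = 4.23e-04). With GSK126 in H2731 it was not called (-0.08 ± 0.05, edgeR adjusted p = 0.237). BVES had 0.818 and 0.661 CPM with shBAP1 in MSTO-211H, against 2.63 and 2.51 CPM, and was 3.47-fold lower (-1.80 ± 0.20, edgeR adjusted p = 3.20e-05). It was also lower with shBAP1 in H2810 (-0.79 ± 0.06, edgeR adjusted p = 2.84e-06), and higher with GSK126 by 0.58 ± 0.09 in H2731 and 0.47 ± 0.06 in H2810 (both called by edgeR, with an adjusted p of 1.39e-05 in H2810).

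Of 26 scaffold and polarity genes, 26 were tested in the drug table and 25 in the knockdown table. With GSK126, 6 rose and 2 fell in H2731, and 4 rose and 4 fell in H2810. With shBAP1, 7 rose and 6 fell in MSTO-211H, and 6 rose and 10 fell in H2810. Their median lay between -0.07 and 0.09 in these comparisons. PATJ, a polarity scaffold of the Crumbs complex, had 20.4 and 16.6 CPM with shBAP1 in H2810, against 46.0 and 41.8 CPM, and was 2.37-fold lower (edgeR adjusted p = 2.69e-06). PRKCI, the atypical protein kinase C of the Par complex, had 163 and 155 CPM there, against 79.5 and 76.8 CPM, and was 2.03-fold higher (edgeR adjusted p = 1.94e-07), and PARD6A of the same complex was 2.78-fold higher (edgeR adjusted p = 0.00577) at about 1 CPM. AMOT, an angiomotin, had 1.01 and 1.15 CPM with shBAP1 in MSTO-211H, against 3.88 and 4.15 CPM, and was 3.70-fold lower (edgeR adjusted p = 4.95e-05). The polarity genes named in H2810 hence moved in both directions.

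Of 13 other desmosome genes, 6 were tested in each table. With GSK126, 3 rose and 2 fell in H2731, and 3 rose and 1 fell in H2810. With shBAP1, 2 rose and 3 fell in MSTO-211H, and 0 rose and 2 fell in H2810. Their median was 0.44 in H2731 and 0.17 in H2810 with GSK126, and -0.20 in MSTO-211H and -0.31 in H2810 with shBAP1. DSC2, a desmocollin, had 0.987 and 1.07 CPM with GSK126 in H2810, against 0.457 and 0.439 CPM, and was 2.28-fold higher. It is 1 of the 3 counted as risen there. With DMSO it was low in both lines (H2731 against H2810, -0.55 ± 0.48). It may thus have passed the filter only through the group where it was high, and this rise is a description. With shBAP1 in MSTO-211H, DSC2 had 1.01 and 1.01 CPM, against 3.59 and 4.05 CPM, and was 3.76-fold lower (edgeR adjusted p = 7.36e-05). DSG2, a desmoglein singled out after its values were seen, was called in all 4 comparisons, in the same directions as BVES. It was higher with GSK126, by 0.49 ± 0.08 in H2731 and by 0.38 ± 0.07 in H2810 on the log2 scale (edgeR adjusted p = 2.25e-04 and 6.65e-04), and lower with shBAP1, by -0.67 ± 0.07 in MSTO-211H and by -0.58 ± 0.12 in H2810 (edgeR adjusted p = 1.98e-05 and 0.00293).

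**Figure D5:**
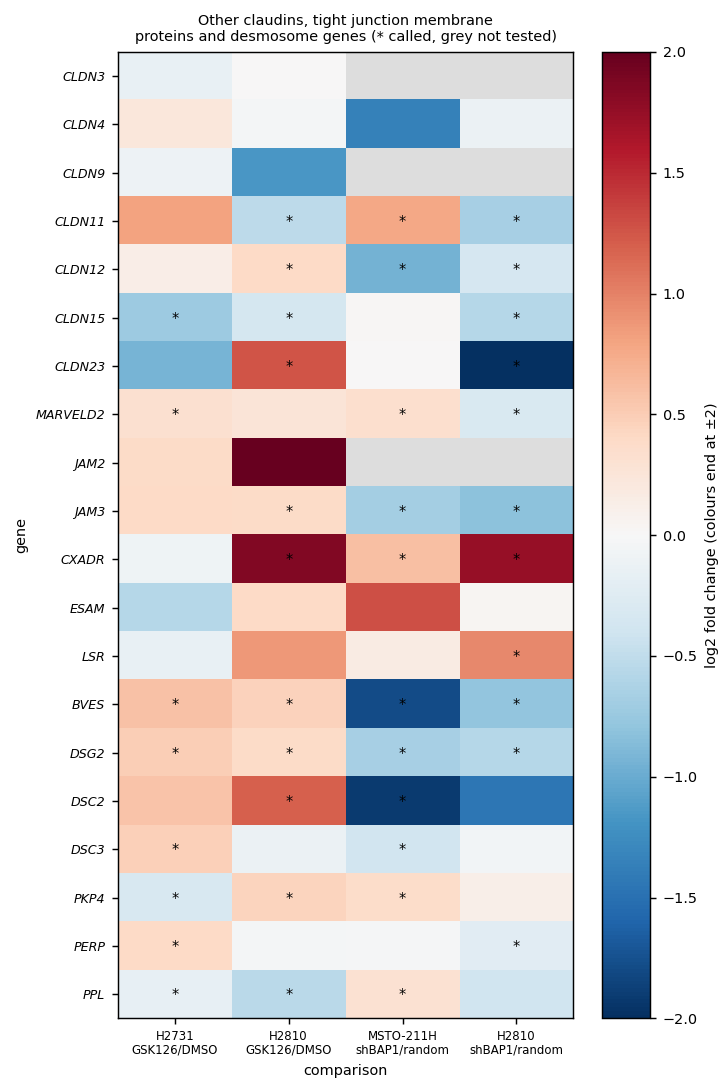
Log2 fold change of 20 other claudins, tight junction membrane genes and desmosome genes (rows) in the 4 comparisons within a line (columns), with an asterisk where the edgeR adjusted p was under 0.05 and grey where a gene was not tested. DSG2 is at 0.49 and 0.38 with GSK126 and at -0.67 and -0.58 with shBAP1, and CXADR is at 1.86 and 1.75 in H2810.

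Of 12 adherens junction genes, 10 were tested in each table. With GSK126, 3 rose and 3 fell in H2731, and 4 rose and 2 fell in H2810. With shBAP1, 4 rose and 3 fell in MSTO-211H, and 3 rose and 1 fell in H2810. Their median lay between -0.03 and 0.03. NECTIN1 had 16.3 and 15.6 CPM with shBAP1 in MSTO-211H, against 8.28 and 7.47 CPM, and was 2.02-fold higher (edgeR adjusted p = 1.15e-05). CDH3 had 0.176 and 0.197 CPM with shBAP1 in H2810, against 0.644 and 0.535 CPM. It is the 1 counted as fallen there. Of these 2 groups, only the random shRNA group, where it was higher, may carry it past the filter. Its fall is thus a description on few counts. E-cadherin (CDH1) averaged at most 0.432 CPM in any group and was not tested, while N-cadherin (CDH2) averaged 83.7 to 220 CPM.

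Of 12 epithelial transcription and splicing factors, 5 were tested in each table, and GRHL2, OVOL2, ESRP1 and TP63 were at or near 0 in every group. With GSK126, 1 rose and 0 fell in H2731, and 2 rose and 1 fell in H2810. With shBAP1, 1 rose and 1 fell in each line. Their median was 0.62 with GSK126 in H2810 and between -0.08 and -0.03 in the other comparisons. GRHL1, a grainyhead factor, had 1.04 and 0.964 CPM with GSK126 in H2810, against 0.400 and 0.537 CPM (1.07 ± 0.37). It is 1 of the 2 counted as risen there. Of these 2 groups, only the GSK126 group, where it was higher, may carry it past the filter. This rise is thus a description on few counts. All 6 transcription factors of the epithelial to mesenchymal transition (of the ZEB, SNAI and TWIST families) were tested. With GSK126, 4 rose and 0 fell in H2731, and 2 rose and 0 fell in H2810. With shBAP1, 1 rose and 3 fell in MSTO-211H, and 1 rose and 4 fell in H2810. Their median was 0.30 in H2731 and 0.07 in H2810 with GSK126, and -0.35 in MSTO-211H and -0.34 in H2810 with shBAP1. SNAI2 had 2.21 and 2.29 CPM with shBAP1 in MSTO-211H, against 10.9 and 10.5 CPM, and was 4.73-fold lower (edgeR adjusted p = 3.29e-08), and ZEB2 had 20.2 and 20.6 CPM, against 51.7 and 51.8 CPM, and was 2.53-fold lower (edgeR adjusted p = 5.48e-08). SNAI1 had 6.47 and 6.55 CPM with shBAP1 in H2810, against 2.58 and 2.04 CPM, and was 2.80-fold higher (edgeR adjusted p = 8.37e-05). Whether these factors bear on the junction genes was not tested.

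For CLDN1, JUP, DSP and PKP2, likeness to other genes was measured as Pearson's r over the 16 libraries, on log2 of CPM plus 1 centred per line within each table, among 10969 genes. The values describe these libraries, which share their groups, tables and controls. CERCAM (0.986), HSPA4L (0.98) and TMEM51 (0.978) were most like CLDN1. TOLLIP (0.93), CACFD1 (0.928) and ERVFRD-1 (0.922) were most like JUP. LAMA1 (0.944), ARHGEF12 (0.918) and SSH1 (0.915) were most like DSP, and ARRDC2 (0.966), TNFAIP3 (0.958) and VSIR (0.945) were most like PKP2. None of the nearest genes was another of the 9. Among the 9, the highest r was 0.711 between OCLN and DSP, and the lowest was -0.758 between DSP and PKP3. CLDN1 and PKP2 had an r of -0.739.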

How the data were processed

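RNA was sequenced as poly-A libraries with 65-base single-end reads on a HiSeq instrument, per the labels' protocols. The authors deposited raw counts per Ensembl gene, with no normalization. The tools named are TopHat2 2.0.12, TopHat, HTSeq and DESeq2, per the submitters' processing notes. The human build, strand setting and handling of reads with several matches are not given in the sources used here; 60418 of 60674 gene IDs were found in GENCODE v44 (GRCh38), and 99.94% of these overlap it. Transcripts that overlap a member on either strand held at most 26 counts in a library, and the pseudogene OCLNP1 at most 3. The knockdown table has a row without a gene name, holding 0 counts, which was dropped.

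Each table was fitted with all 4 groups in edgeR 4.0.16 (R 4.3.3): filterByExpr, TMM factors, quasi-likelihood F tests and Benjamini-Hochberg adjustment over all genes tested, with calls at an adjusted p under 0.05. CPM use TMM-scaled totals. CPM per kb divides by the exon union of GENCODE v44. Depth of 17927837 to 23217215 counts limits genes under about 1 CPM. The code was tested on simulated data. Alternatives were RLE factors, no filter, a stricter filter (50 counts in 2 libraries), DESeq2 1.42.0, limma-voom 3.58.1, fits of the 2 groups alone, a replicate block, and leaving out each library in turn. The members and all lists were chosen with earlier results of these data known. Named genes were all 9 members, the called genes of each wider list with an absolute log2 fold change of at least 1 within a line (up to 3 per list and comparison), and the 3 genes most like CLDN1, JUP, DSP and PKP2 at a mean of at least 5 CPM. The 5 mouse libraries were not used here.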

Additional observations from a re-analysis of the deposited data

Results flagged for a closer look

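Responses that differ between the lines are given as log2 differences from the same edgeR fits. The test of the difference passed for JUP, PKP2, TJP1 and F11R. CLDN1 and CGN are given as a description only: the CLDN1 rise in H2810 was known when the genes were chosen, and CGN entered the knockdown fit through MSTO-211H, where it was higher. With GSK126, H2731 minus H2810, they were -0.49 for F11R, 0.49 for TJP1, -1.63 for JUP and 0.54 for PKP2. With shBAP1, MSTO-211H minus H2810, they were -1.71 for CLDN1, -2.64 for CGN, 1.41 for JUP and 1.17 for PKP2. JUP and PKP2 appear under both agents, and JUP was called in opposite directions in the 2 lines of each experiment, although its fall with shBAP1 in H2810 was lost with DESeq2. H2731 and H2810 differ in more than their BAP1 label, and MSTO-211H and H2810 are different lines too. With the random shRNA, BAP1 RNA was not called different between MSTO-211H and H2810 (-0.19 ± 0.11, edgeR adjusted p = 0.125). Levels under the controls also differed. JUP averaged 179 CPM in H2731 and 73.1 CPM in H2810 with DMSO, and 3.02 CPM in MSTO-211H and 42.2 CPM in H2810 with the random shRNA. The same control libraries enter these levels and the responses.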

How the results depend on the processing

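Of 72 results (9 genes in 8 comparisons), 48 kept direction and call under every alternative that gave a value. The stricter filter gave no value for CGN in the knockdown table, DESeq2 no adjusted p for CGN in the difference of GSK126 responses, and the fit of the 2 groups alone none for CGN with shBAP1 in H2810; that fit does not apply to the 2 differences of responses. Limma-voom changed no call. The members called higher with shBAP1 in H2810 were 2, but 4 without the filter, 1 with the stricter filter, with DESeq2 or with the 2 groups alone, and 1 to 3 with a library left out. The members called lower were 3 each for GSK126 in H2731 and for shBAP1 in MSTO-211H, but 1 with DESeq2, and 1 to 3 and 2 to 3 with a library left out. Those called lower in the difference of shBAP1 responses were 2, but 4 without the filter, 1 with the stricter filter and 2 to 4 with a library left out, and those called higher with GSK126 in H2731 were 2, and 2 to 4 with a library left out. The signs that turned were of changes not called. With a library left out, the log2 values ran from -0.026 to 0.490 for CLDN1 and from -0.047 to 0.069 for TJP1 with GSK126 in H2810, from -0.385 to 0.261 for OCLN in the difference of GSK126 responses (0.0017 without the filter), from -0.389 to 0.117 for PKP3 with shBAP1 in H2810, and, in the difference of shBAP1 responses, from -0.289 to 0.0040 for F11R and from -0.0001 to 0.504 for PKP3. The cause was not tested. Over all genes, DESeq2 called 1557 higher and 1187 lower for GSK126 in H2810, against 2610 and 2071; 1391 and 732 in H2731, against 2210 and 1749; 821 and 580 for their difference, against 1292 and 1066; and 2385 lower for shBAP1 in H2810, against 3701. The counts over all genes also moved with a library left out. Fewer genes were called lower with GSK126 in each line when any of its libraries, GSK126 or DMSO, was left out. They were 1284 to 1819 in H2810, against 2071, and 846 to 1393 in H2731, against 1749. Without centring, other genes had the highest r to CLDN1, JUP, DSP and PKP2.

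The replicate numbers were not taken as pairs, because no label says that they mark a shared culture or day. Over all genes tested, same-numbered replicates did not deviate together (correlations -0.0646 to 0.0979). For DSP in H2810 of the knockdown experiment the first library was the higher in both groups. It had 126 against 87.9 CPM with the random shRNA and 169 against 115 CPM with shBAP1. With the replicate block, 4 members were called lower in the difference of shBAP1 responses, against 2, since OCLN (adjusted p = 0.0484) and DSP (adjusted p = 0.0434) passed, and DSP passed with shBAP1 in H2810 (adjusted p = 0.00119). CGN in H2810 and CLDN1 in H2731, at under 1 CPM, rest on few counts.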
